A study of Mus musculus with 4 samples.

Results

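The Iroquois homeobox genes Irx1 to Irx6 were described across the colonic DNA methylomes of newborn and weanling mice. The listed members were all 6 Iroquois genes of the GENCODE M1 annotation (mm9), among 21418 autosomal protein-coding genes. They were chosen by measured values, namely the methylation difference with age in intestinal stem cells (ISCs), in which Irx4 held one of the longest runs of gaining bins. Every ISC difference between P21 and P0 is therefore given as a description with no p. For each gene a window from 10 kb upstream to 10 kb past the gene was cut into 200-bp bins. A bin was tested when it held at least 2 CpGs and 10 or more calls in each library, a call being a CpG read as methylated or unmethylated. Of 507 bins with 2 CpGs in the 6 windows, 483 were tested, of 4076373 tested over all autosomes.

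Iroquois proteins are transcription factors of the TALE class, whose homeodomain carries an extended loop between its first helices. In mammals they lie in separate clusters of 3 genes on different chromosomes, which arose by duplication of an ancestral cluster, so that Irx1 is the counterpart of Irx3, Irx2 of Irx5, and Irx4 of Irx6. They are known for patterning the neural tube, heart, limbs and other embryonic tissues, and Irx4 for its expression in the cardiac ventricles. The starts of such developmental regulators typically lie in broad regions of high CpG density that stay free of methylation, whether or not the gene is transcribed.

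Whole-genome bisulfite sequencing, in which unmethylated cytosines are converted and read as T while methylated ones are read as C, was performed on cells sorted from mouse colon at birth (P0) and at the end of suckling, on postnatal day 21 (P21). Mice of the knock-in Lgr5-EGFP-CreER line, whose reporter is driven by the regulatory sequences of the stem cell gene Lgr5, were crossed with wild-type C57 mice, and DNA was pooled from litters at P0 and from reporter-positive offspring at P21. ISCs were positive for Lgr5-EGFP, and differentiated epithelial cells were EpCAM-positive and Lgr5-EGFP-negative, at either age. Per the paper, Cre expression in this line is mosaic, and some crypts of adult mice lack EGFP. The EGFP-negative sort can therefore hold unlabelled stem cells, and their part in it was not tested. Each of the 4 groups (ISC P0, differentiated P0, ISC P21, differentiated P21) was 1 library of pooled mice with no replicate, so age cannot be told apart from other differences between the pools, and a test compares libraries and not conditions. The sources used here do not say whether both populations of an age came from the same animals.

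The libraries held between 1023427645 and 1188114423 calls. The median over tested bins was 55 to 81 calls, and over the bins of the 6 windows it ran from 92 calls in ISC P0 to 157 in differentiated P0. At the medians of ISC P0, differentiated P0, ISC P21 and differentiated P21, a bin with 0 methylated calls allows a level of up to 3.26%, 1.91%, 2.94% and 2.16%. Over the 4 libraries, promoter levels of the 6 epithelial markers examined (among them Epcam, Cdh1 and Cdx2) ran from 0% to 15.2%, and those of the 3 stem cell markers (Lgr5, Ascl2, Axin2) from 1.68% to 16.2%. Promoters of the blood markers Ptprc, Cd3e, Cd79a and Lyz2 lay between 51.1% and 88.3%, and of the endothelial markers Pecam1 and Cdh5 between 60.3% and 78.0%. Of the mesenchymal markers, Col1a1 and Col3a1 ran from 31.8% to 59.4% and Col1a2 and Pdgfra from 1.36% to 5.57%. Promoter methylation is no measure of expression, and the part of other cells in the results below was not tested.

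On chromosome 13, Irx1 lies at 72095680 to 72101171 (minus strand, 4 exons), Irx2 at 72766245 to 72771644 (plus strand, 5 exons) and Irx4 at 73397945 to 73407068 (plus strand, 6 exons). On chromosome 8, Irx3 lies at 94322428 to 94325553 (minus strand, 4 exons), Irx5 at 94881695 to 94885351 (plus strand, 3 exons) and Irx6 at 95198188 to 95204855 (plus strand, 6 exons). Neighbouring members are separated by 665074 and 626301 bp on chromosome 13 and by 556142 and 312837 bp on chromosome 8, so no windows overlapped. CpG islands (CGIs), taken as regions where 500 bp hold at least 25 CpGs, covered 21 of 72 tested bins at Irx1, 33 of 74 at Irx2, 37 of 91 at Irx4, 34 of 80 at Irx3, 36 of 89 at Irx5 and 8 of 77 at Irx6. Irx6 thus had the fewest CGI bins of the family. With at least 35 CpGs in 500 bp, CGI bins numbered 13 at Irx1, 15 at Irx2, 9 at Irx4, 18 at Irx3, 23 at Irx5 and 4 at Irx6, so that Irx4 then had fewer than every member but Irx6.

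Below are 4 stretches of the plus strand, each 1 bin, read from the NCBIM37 (mm9) assembly to show the sequences behind the values that follow, with every CpG in capitals. The first holds the largest differentiated-cell gain of the run in Irx4 intron 1, and the next is the most deeply read downstream CGI bin of Irx4 that gained there. The last ones are the nearest whole bins upstream of the starts of Irx4 and, for contrast, Irx3, which lies on the minus strand.
Irx4 intron 1, chr13:73401801-73402000: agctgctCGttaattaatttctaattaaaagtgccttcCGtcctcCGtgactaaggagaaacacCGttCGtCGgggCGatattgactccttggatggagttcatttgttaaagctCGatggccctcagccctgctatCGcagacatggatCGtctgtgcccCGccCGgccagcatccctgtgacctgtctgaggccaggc
Irx4 downstream, chr13:73408201-73408400: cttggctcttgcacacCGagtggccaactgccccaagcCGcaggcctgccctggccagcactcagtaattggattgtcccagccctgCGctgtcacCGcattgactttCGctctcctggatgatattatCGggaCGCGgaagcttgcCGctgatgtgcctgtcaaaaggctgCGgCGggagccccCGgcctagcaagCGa
Irx4 upstream of the start, chr13:73397601-73397800: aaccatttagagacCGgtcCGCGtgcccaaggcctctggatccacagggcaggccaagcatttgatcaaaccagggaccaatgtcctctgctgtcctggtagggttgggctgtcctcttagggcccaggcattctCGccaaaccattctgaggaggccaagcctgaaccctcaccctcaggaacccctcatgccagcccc
Irx3 upstream of the start, chr8:94325601-94325800: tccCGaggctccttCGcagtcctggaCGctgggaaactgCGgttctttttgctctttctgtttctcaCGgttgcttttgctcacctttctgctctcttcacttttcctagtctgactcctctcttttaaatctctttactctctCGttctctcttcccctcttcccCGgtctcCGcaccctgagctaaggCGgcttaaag
The intron 1 bin holds 12 CpGs at 53.5% GC and the downstream bin 13 CpGs at 62.0% GC. Upstream of the starts, the Irx4 bin holds 4 CpGs and the Irx3 bin 9.

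In the intron 1 bin the level was 28.1% in ISC P0 (235 calls) and 31.6% in differentiated P0 (561 calls), against 64.6% in ISC P21 (280 calls) and 71.8% in differentiated P21 (408 calls). Both P0 libraries lay well below both P21 libraries. The downstream bin was at 8.10% and 17.2% at P0 and at 46.2% and 37.4% at P21, in ISCs and differentiated cells respectively. Upstream of the Irx4 start the levels were 11.9% and 15.8% at P0 and 22.4% and 26.2% at P21, with 59 to 183 calls, and this bin passed the test in no comparison. Upstream of the Irx3 start the level was 0.145%, 0.462%, 0.357% and 0.456% in ISC P0, differentiated P0, ISC P21 and differentiated P21, on 560 to 692 calls.

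The first question was how methylation lay over the 6 genes, before any change with age. The members were low at their starts, and how far the low levels reached differed among them, whereas the median over all tested bins was 85.4% to 85.9% in the 4 libraries. In ISC P0 the median bin was at 6.50% for Irx1, 2.73% for Irx2, 7.54% for Irx3 and 2.80% for Irx5. It was at 35.7% for Irx4 and 64.9% for Irx6, the paralogs at the far end of each cluster. Bins below 15% made up 52.5% to 71.6% of the tested bins of Irx1, Irx2, Irx3 and Irx5 in ISC P0, 33.0% of those of Irx4 and 19.5% of those of Irx6, against 5.59% of all tested bins.

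**Figure D1:**
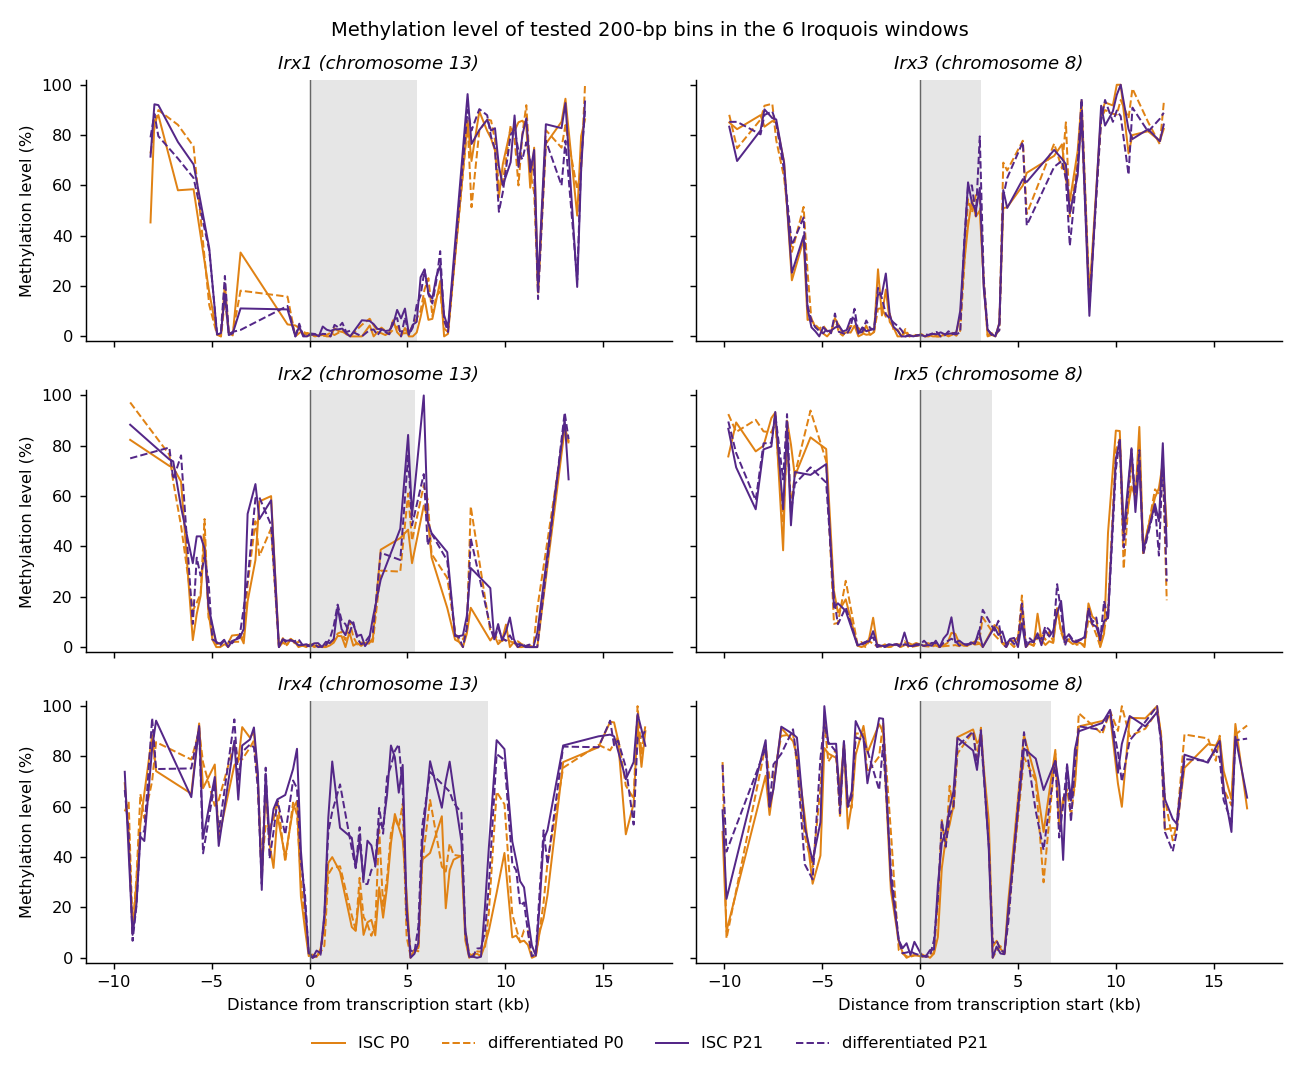
Methylation level (%) of each tested 200-bp bin against the distance from the transcription start (kb, positive in the direction of transcription), for the genes of chromosome 13 at left and of chromosome 8 at right; grey marks the gene, orange lines P0, purple lines P21, solid lines ISCs and dashed lines differentiated cells. All 6 starts sit in a low valley, and the P0 and P21 lines part most clearly inside Irx4 and just past its end, where the run in intron 1 went from 22.0% to 52.0% in ISCs.

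Around each start, the stretch of consecutive tested bins below 15% was widest at Irx5 in 3 of the 4 libraries, at 10200 bp in ISC P0, 8400 bp in differentiated P0 and 11000 bp in ISC P21. In differentiated P21 it was 8400 bp there, and Irx1 was wider. Bins that were not tested were passed over, so a width can include sequence with no tested bin. In differentiated P21 the 8400 bp of Irx5 held 40 tested bins and the 9800 bp of Irx1 held 33. The 7000 bp of Irx1 in ISC P0 held 31. The order of Irx1 and Irx5 depended on the limit in 3 of the 4 libraries: in differentiated P21, Irx5 was the wider with limits of 10% (6400 against 6200 bp) and 20% (11400 against 10000 bp). With 10%, Irx1 was the wider in ISC P21 (5200 against 4800 bp) and both had 6400 bp in differentiated P0, and with 20% Irx1 was the wider in differentiated P0 (11200 against 8400 bp). At Irx1, its widths were 7000, 6600, 9800 and 9800 bp in the same order, and at Irx3 3800, 7800, 3800 and 4000 bp. Widths rest on a few border bins near the limit, and no replicate shows how far they vary. Irx2 went from 5000 bp in both P0 libraries to 3000 bp in both P21 libraries, but with a limit of 20% it was 5000 bp in all 4. Irx6 held 2200 bp in ISC P0 and 2000 bp in the other libraries. Irx4 had the narrowest stretch in every library, also with limits of 10% and 20%, at 1200 bp in ISC P0, 1000 bp in differentiated P0 and 800 bp in both P21 libraries.

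Promoters, taken from 1000 bp upstream through the first exon, were at or below 2.54% in all 4 libraries for every member but Irx4. The Irx3 promoter was at 0.339%, 0.490%, 0.391% and 0.572% in ISC P0, differentiated P0, ISC P21 and differentiated P21. Irx4 had the highest promoter level of the family in each library, at 8.78% (95% Wilson interval 7.21% to 10.7%), 9.05% (7.82% to 10.5%), 15.1% (12.9% to 17.7%) and 10.2% (8.83% to 11.7%). Within that promoter, the bins over the start and exon 1 were the low ones: the 3 bins from 73397801 to 73398400, singled out after their values were seen, ran from 0% to 2.86% over the 4 libraries. No promoter of the 6 gained methylation with age by the call used here, which asked for over 15 points of difference together with an adjusted p under 0.05. Over all genes, 0.842% of promoters gained in ISCs and 0.703% in differentiated cells.

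Gene bodies, between the first and last exon, separated the members further. In ISC P0 the body was at 1.68% for Irx1, 2.69% for Irx2, 1.55% for Irx5 and 8.26% for Irx3. Irx4 stood at 25.7% and Irx6 at 46.7%, so that body levels, like window medians, set these paralogs above the rest. The intervals of Irx1 (1.27% to 2.23%) and Irx5 (1.04% to 2.30%) overlapped, while those of Irx4 (24.4% to 27.2%) and Irx6 (44.1% to 49.4%) did not.

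With age, the body of Irx4 was the only one of the 6 that gained methylation by the call in differentiated cells. Of its 7849 calls in differentiated P0, 22.8% were methylated (21.9% to 23.8%), and of 7300 calls in differentiated P21, 39.8% (38.7% to 40.9%), a gain of 16.9 points (95% Newcombe interval 15.5 to 18.4, adjusted p = 8.7e-110 by Fisher's exact test over all gene bodies). Among 18272 gene bodies, 0.263% gained in differentiated cells, and Irx4 ranked 47 from the highest difference, where the median gene body differed by -0.416 points. In ISCs the Irx4 body went from 25.7% to 46.9%, where 0.323% of all bodies gained. All p-values and intervals cover counting error only: calls on 1 read, and PCR copies that no molecular identifier sets apart, are not independent molecules, so both are too small. For gains of Irx4, the p-values in differentiated cells are also not independent of the choice of the gene. Over all tested bins, 23.7% of ISC gains were also gains in differentiated cells, where 0.992% of all tested bins gained.

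The other bodies had much smaller differences with age in differentiated cells, all short of 15 points. The difference was 1.89 points at Irx3 (adjusted p = 0.00124), 1.79 at Irx2 (5.51e-06), 1.07 at Irx5 (0.00117) and 0.846 at Irx1 (0.00711), with Fisher's exact test over all gene bodies. These genes were thus slightly higher at P21, from bodies at or below 6.16% at P0. Such rises were common: 17.8% (for Irx3) to 29.3% (for Irx1) of all gene bodies had a difference as large or larger. For Irx6 the body was at 39.8% in differentiated P0 and 35.9% in differentiated P21, a difference of -3.87 points (-6.50 to -1.23, adjusted p = 0.0118 by Fisher's exact test over all gene bodies) in pooled calls. With the levels of its bins averaged, the difference was 0.183 points. In ISCs, where the contrast chose the members, the Irx6 body was at 46.7% and 45.2%.

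Last exons differed most in level among the members. In ISC P0, differentiated P0, ISC P21 and differentiated P21, the last exon of Irx6 was at 73.2%, 70.1%, 74.7% and 73.8%, and that of Irx3 at 45.6%, 52.4%, 47.7% and 61.2%. Those of Irx1, Irx4 and Irx5 stayed at or below 8.05% in every library. For Irx2 the last exon was at 41.1% (124 calls), 50.4% (123 calls), 66.9% (118 calls) and 55.7% (115 calls), so that its ISC libraries lay 25.8 points apart (13.3 to 37.2) and its differentiated libraries 5.25 points (-7.35 to 17.6, adjusted p = 0.721 by Fisher's exact test over all last exons). The ISC difference was 17.2 points on the forward strand alone and 42.1 points on the reverse strand. By the call used here, Irx2 was the single last exon of the 6 that gained in ISCs, where 1.61% of all last exons gained, and none gained in differentiated cells, where 1.2% did. No test was made of whether the changes in ISCs and differentiated cells differed.

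**Figure D2:**
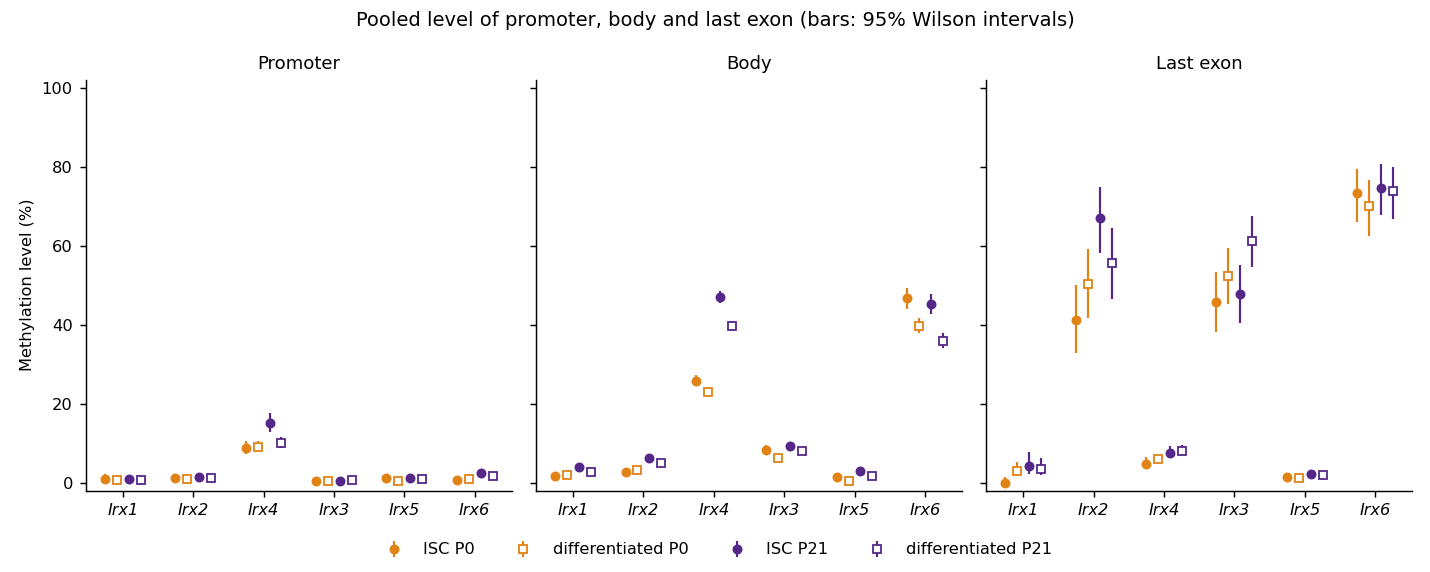
Level (%) of calls pooled over the promoter, body and last exon of each member in the 4 libraries, with 95% Wilson intervals as bars; orange is P0, purple P21, filled circles ISCs and open squares differentiated cells. Irx4 bodies lie at 22.8% to 25.7% at P0 and at 39.8% to 46.9% at P21, while every promoter but that of Irx4 stays at or below 2.54%.

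Bin by bin, gains with age in ISCs, the contrast that chose the members, were found in 33 of the 483 bins (6.83%) and losses in 1 (0.207%), where 1.07% of all tested bins gained and 1.48% lost. Nothing is read from the share of gains, because it follows from the choice. Nor is the share of losses read, because a bin below 15% at P0 has no room to lose over 15 points. In ISC P0 such bins were 19.5% (Irx6) to 71.6% (Irx2) by window, against 5.59% of all tested bins. By gene, 25 of the 33 gains were in Irx4 (27.5% of its tested bins), 6 in Irx2 (8.11%), 1 in Irx1 and 1 in Irx6, and none in Irx3 or Irx5. The gaining bin nearest to the 15-point limit was past the end of Irx1, at 15.8 points, and the nearest bin short of it with an adjusted p below 0.05 lay downstream of Irx5, at 11.8 points.

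Differentiated cells, whose libraries the choice did not use, gained in 24 of the 483 bins (4.97%) and lost in 3 (0.621%), against 0.992% and 1.86% of all tested bins. Irx4 held 21 of the 24 gains, 23.1% of its bins. Without Irx4, the other 5 genes had 3 gains in 392 bins (0.765%), a share near that of all bins. Among 19726 genes with 20 or more tested bins, Irx4 ranked 9 from the highest by its share of gaining bins in differentiated cells, and the median gene had 0.512%. This share and rank are not independent of the choice of Irx4 for its ISC gains. Over all tested bins, 23.7% of ISC gains were also gains in differentiated cells, so a high share there follows in part from the choice. The background differs from these windows in level. In differentiated P0 the median was 85.6% over all tested bins, and 2.40% (Irx5) to 68.8% (Irx6) by window. Many of all bins thus had no room for a gain of over 15 points, which limits these comparisons. For losses the limit is the other way, as a bin below 15% cannot lose over 15 points. Such bins were 18.2% (Irx6) to 70.8% (Irx5) by window in differentiated P0, against 5.47% of all tested bins. Irx2 had 2 gains (2.70%), Irx6 had 1 (1.30%), and Irx1, Irx3 and Irx5 had none.

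**Figure D3:**
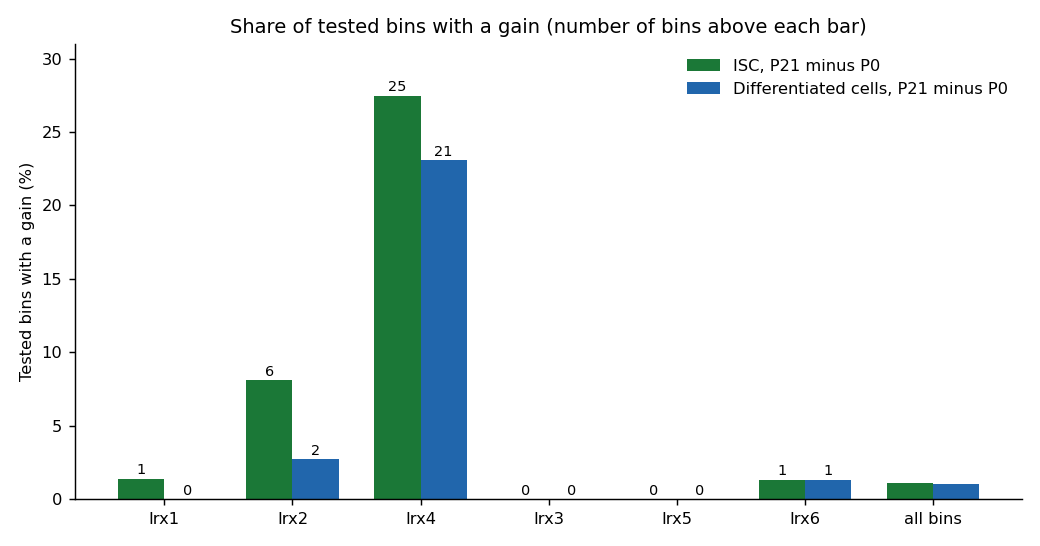
Share (%) of the tested bins of each member that gained methylation from P0 to P21, in ISCs (green) and differentiated cells (blue), with the number of gaining bins above each bar and the share over all tested bins at right. Irx4 stands at 27.5% and 23.1%, against 1.07% and 0.992% of all bins. It was chosen for its ISC gains, and its gains in differentiated cells are not independent of that choice.

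Most gaining bins of Irx4 did so in both populations. Of its 25 ISC gains, 16 (64.0%) were also gains in differentiated cells, which is 76.2% of the 21 there. All 25 were higher at P21 than at P0 in differentiated cells, and all 21 were so in ISCs. Over all tested bins, 10405 gained in both, 23.7% of the ISC gains and 25.7% of the differentiated gains. Nothing is read from the higher shares at Irx4, because it was chosen for its ISC gains. Its bins were also more deeply read, with medians of 87 to 165 calls over the libraries against 55 to 81 for all tested bins. Taken over its whole window, Irx4 was higher at P21 in 64 of 91 bins in ISCs and in 61 of 91 in differentiated cells, with a median difference of 6.50 and 8.42 points.

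The gains of Irx4 were placed inside the gene and past its end, and none was upstream. Of 38 tested bins of the gene itself, 18 gained in ISCs and 17 in differentiated cells, and of 23 downstream bins 7 and 4 gained. None of the 30 upstream bins gained in either population, and 1 lost in each. CGI bins of Irx4 gained in 15 of 37 (ISCs) and 16 of 37 (differentiated cells), and its other bins in 10 and 5 of 54. Over all CGI bins tested, 1.37% gained in ISCs and 1.21% in differentiated cells.

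The longest gaining run in ISCs took 12 adjacent bins from intron 1 to exon 2 of Irx4, at 73400001 to 73402400, and held 106 CpGs. Its pooled level was 22.0% (20.2% to 24.0%, 1833 calls) in ISC P0 and 24.5% (23.1% to 26.0%, 3521 calls) in differentiated P0. At P21 it was 52.0% (49.9% to 54.1%, 2173 calls) in ISCs and 47.1% (45.4% to 48.7%, 3556 calls) in differentiated cells. Both populations were far higher at P21, and in differentiated cells the difference was 22.6 points (20.4 to 24.7). Of the 85 CpGs of the run with 10 or more calls in every library, 80 were higher at P21 in ISCs and 78 in differentiated cells. The median CpG was at 16.7% in both P0 libraries, at 50.0% in ISC P21 and at 52.1% in differentiated P21.

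In differentiated cells, the longest runs of gains had 4 bins. The first, at 73401601 to 73402400, lay within the intron 1 to exon 2 run and went from 35.6% to 68.5%, by 32.9 points (29.0 to 36.6). It includes the bin printed above at 73401801, whose gain of 40.3 points (34.2 to 45.8) was the largest of Irx4 in these cells (adjusted p = 3.13e-32 by Fisher's exact test over all bins). The other, from intron 4 to intron 5 at 73404601 to 73405400, went from 39.6% to 65.4%, by 25.9 points (21.0 to 30.5), and contained exon 5. Runs of 3 bins lay in intron 1, at 73400001 to 73400600, from 20.6% to 43.7%, and at 73400801 to 73401400, where differentiated P21 was at 32.4%.

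The remaining long runs in ISCs covered the same distal part of the gene and a CGI downstream of it. The 4 bins at 73408201 to 73409000, past the end of Irx4, went from 7.55% to 36.4% in ISCs and from 12.2% to 29.3% in differentiated cells. At 73404801 to 73405400, between intron 4 and intron 5, 3 bins went from 30.1% to 72.1% in ISCs and reached 65.0% in differentiated P21, above differentiated P0 by 19.8 to 29.9 points. The largest ISC difference in a bin of Irx4 was downstream at 73407401, with 25.8% (31 calls) in ISC P0 and 86.5% (37 calls) in ISC P21, against 66.0% and 81.0% in differentiated cells. That bin has 2 CpGs, and its P0 level was already high in differentiated cells.

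**Figure D4:**
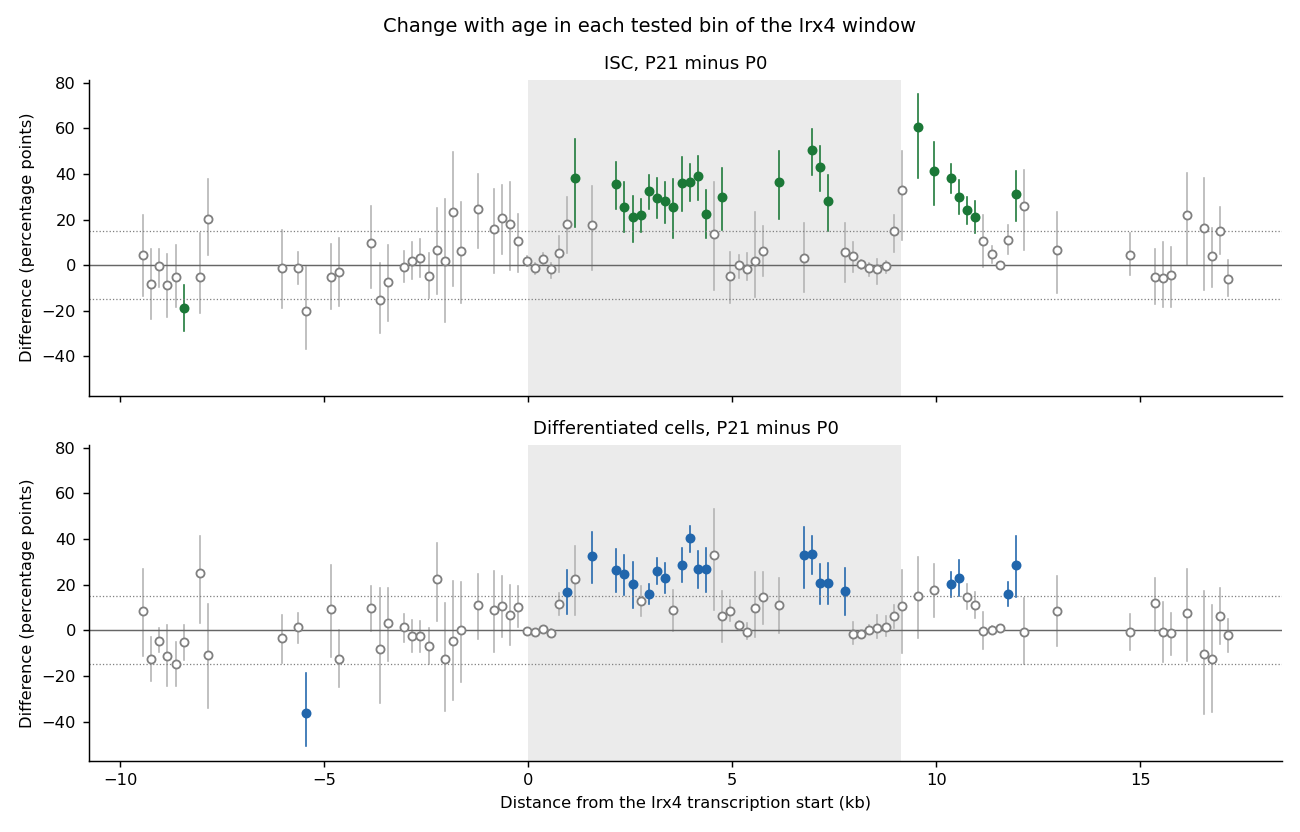
Difference in level between P21 and P0 (percentage points, bars: 95% Newcombe intervals) in each tested bin of the Irx4 window against the distance from its start (kb), in ISCs above and differentiated cells below; filled points were called, open points were not, dotted lines mark 15 points and grey marks the gene. Called gains start about 1 kb into the gene and reach past its end, with 25 bins in ISCs and 21 in differentiated cells, and none is upstream of the start.

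Irx4 also had bins near 0 in every library, such as those at its start. In exon 3, the bin at 73403001 with 14 CpGs, singled out after its values were seen, stood at 0% (67 calls) and 0.860% (465 calls) at P0 and at 0% (79 calls) and 2.99% (435 calls) at P21, in ISCs and differentiated cells. In the last exon the 3 CGI bins from 73406001 to 73406600, likewise chosen after seeing them, lay between 0% and 3.67% over the 4 libraries. Methylation at P21 was thus uneven along the gene, as the profile over the window shows.

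Single losses with age occurred upstream of Irx4. At 73392401 the level was 77.6% (67 calls) in differentiated P0 and 41.5% (53 calls) in differentiated P21, a loss of 36.1 points (adjusted p = 0.00404 by Fisher's exact test over all bins), and 67.4% and 47.5% in ISCs. At 73389401 ISCs went from 65.3% to 46.4%, and differentiated cells were at 55.5% and 50.2%. Neither loss had a called neighbour.

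Of the other members of the chromosome 13 cluster, Irx2 had the most called bins. Its ISC gains lay upstream (4 bins), in exon 5 and downstream, and the largest was in exon 5 at 72771201, with 46.7% (30 calls) in ISC P0 and 84.3% (51 calls) in ISC P21. Differentiated cells were at 61.0% and 76.1% in that bin. The adjacent upstream bins at 72760201 and 72760401, with 6 CpGs, formed the single run of Irx2, from 10.4% to 41.8% in ISCs and from 16.4% to 25.9% in differentiated cells. Only the bin at 72760401 gained in both populations, with 17.6% and 35.5% in differentiated cells (17.9 points, 8.37 to 27.2).

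In differentiated cells the largest difference of Irx2 was upstream at 72763601, from 36.2% (196 calls) to 59.5% (163 calls), a gain of 23.3 points (12.9 to 33.0, adjusted p = 0.00100 by Fisher's exact test over all bins). In ISCs the same bin was at 57.9% and 50.9%, so that the libraries of this bin did not order by age. Downstream, the bin at 72772201 lost 18.1 points in differentiated cells, from 58.7% to 40.6%. CGI bins of Irx2 had medians of 0.746%, 1.55%, 2.11% and 2.36% in ISC P0, differentiated P0, ISC P21 and differentiated P21. An exception, singled out after its values were seen, was the upstream CGI bin at 72763001, a called gain in ISCs with levels of 18.2%, 24.8%, 52.9% and 26.7% in that order.

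Irx1 had a called gain in ISCs just past its end, at 72095401, where the level was 7.76% in ISC P0, 10.1% in differentiated P0, 23.5% in ISC P21 and 16.3% in differentiated P21. Its single loss in differentiated cells was far downstream at 72087401, from 58.5% (53 calls) to 22.4% (49 calls), by 36.0 points (adjusted p = 0.0123 by Fisher's exact test over all bins). In ISCs that bin stood at 48.0% and 19.6%. Inside the gene no bin of Irx1 was called, and its 25 bins had medians of 0.893%, 1.41%, 2.86% and 1.70% in the 4 libraries.

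On chromosome 8 the age comparisons gave 1 gain in ISCs and 1 in differentiated cells over 246 bins, 0.407% in each, and no loss. The shares of all tested bins were 1.07% gained and 1.48% lost in ISCs, and 0.992% and 1.86% in differentiated cells. With counts this small, the shares of gains are not read as different from those of all bins. The lack of losses is not read either, because bins low at P0 have no room for a called loss. Both gains were in the window of Irx6, the counterpart of Irx4. In intron 1 at 95199001, levels were 8.24% in ISC P0, 21.5% in differentiated P0, 28.7% in ISC P21 and 23.6% in differentiated P21. Upstream at 95188201, near the edge of the window, they were 10.6%, 7.69%, 23.4% and 42.2%, a gain of 34.5 points in differentiated cells (16.2 to 49.9, adjusted p = 0.0156 by Fisher's exact test over all bins). Neither bin gained in both populations.

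Irx3 and Irx5 had no called bin in any comparison, in 80 and 89 tested bins. A lack of gains was common: of 19726 genes with 20 or more tested bins, 8650 had none with age in ISCs and 9041 none in differentiated cells. In differentiated cells the median difference with age was -0.0467 points at Irx3 and 0.775 at Irx5. CGI bins of Irx5 had medians of 1.12%, 0.646%, 1.21% and 1.29% in ISC P0, differentiated P0, ISC P21 and differentiated P21, and those of Irx3 of 0.851%, 1.28%, 1.56% and 1.25%. The bins of Irx3 downstream were highly methylated in every library, with medians from 67.6% to 76.5%.

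The last question was whether the populations differed at either age. At P0, the level of differentiated cells was higher in 3 of the 483 bins (0.621%) and lower in 1 (0.207%), against 0.288% and 0.22% of all tested bins. At P21 no bin was higher and 1 (0.207%) was lower, against 0.0711% and 0.111%. The counts are so few that the shares are read as near the background. The 5 called bins were all on chromosome 13.

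At P0, the higher bins in differentiated cells were in Irx4 intron 1, past the end of Irx1 and downstream of Irx2. In Irx4 at 73401401, ISCs were at 28.0% and differentiated cells at 50.8%, given with no p because the bin lies in the run chosen for its low level in ISC P0. At Irx1 the populations were at 6.57% and 23.1% at 72095001 (adjusted p = 0.00161), and at Irx2 at 15.6% and 55.9% at 72774401 (adjusted p = 0.0200), both by Fisher's exact test over all bins. At P21, in bins thus picked for their difference at P0, the populations were at 53.5% and 59.6% in Irx4, 17.1% and 16.7% at Irx1 and 31.4% and 43.2% at Irx2. The bin lower in differentiated P0 was at 73402801 in Irx4, over parts of intron 2 and exon 3, with 25.3% in ISCs and 8.35% in differentiated cells. Its CpGs were unevenly read. At those in intron 2 (73402835, 73402857 and 73402888), ISCs were at 71.4%, 26.7% and 33.3% and differentiated cells at 68.8%, 18.2% and 5.88%. They had 14 or 15 calls each in ISC P0 and 32 to 34 in differentiated P0. Those in exon 3 had 3 to 6 and 44 to 59 calls each, with differentiated P0 at or below 8.51%. How far this spread of calls makes the difference was not tested.

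At P21 the called bin was in intron 1 of Irx4 at 73400801, within the long run, where 288 calls gave 46.5% in ISCs and 679 calls 29.3% in differentiated cells, a difference of -17.2 points. It is given with no p, because the bin belongs to a run chosen for its high level in ISC P21. At P0 the same bin was at 14.1% and 13.4%. Over the whole run, whose bins were those that gained in ISCs, differentiated cells were 2.47 points above ISCs at P0 and 4.97 points below them at P21, an order that this choice of bins favours. On the forward strand alone the P0 difference was -0.0464 points, and with bins weighted equally the P21 difference was -2.04 points.

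Over gene bodies no difference between the populations reached 15 points. The Irx4 body was lower in differentiated cells by pooled calls, by 2.90 points at P0 and by 7.14 points at P21, given with no p since the ISC libraries chose this gene. With bins weighted equally the difference was 1.98 points at P0, higher in differentiated cells, and -0.896 points at P21. For Irx6 the pooled differences of -6.92 points at P0 and -9.28 points at P21 became 0.195 and 0.324 points with equal weights. The cause of these reversals was not tested.

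Among the other TALE homeobox genes, 11 were measured over 3365 tested bins, among them genes for partners of Hox proteins and for transcriptional repressors. They gained in 59 bins (1.75%) and lost in 67 (1.99%) in ISCs, and gained in 56 (1.66%) and lost in 68 (2.02%) in differentiated cells. In both populations this list was thus called in about equal numbers either way, and its shares of gains were above the 1.07% and 0.992% of all tested bins. Its shares of losses stood beside 1.48% and 1.86% of all tested bins. Of its members, Pknox2 had 5 gains and 5 losses in ISCs and 3 and 10 in differentiated cells over 621 bins, and Meis2 had 3 and 9 in ISCs and 2 and 7 in differentiated cells over 511 bins. Over the 4 libraries, the promoter of Meis2 was at 0.673% to 2.76% and that of Pknox2 at 16.2% to 22.2%.

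The protein-coding genes that flank the clusters differ widely in size, and at the share of gains over all tested bins the 3 small ones would hold fewer than 1 each. Ndufs6, which encodes a subunit of mitochondrial complex I, lies 50218 bp past Irx4 and had 0 gains in 84 bins in either population, with 2 losses in ISCs and 1 in differentiated cells. On the other side of that cluster, 8030423J24Rik had 0 gains and 1 loss in each population over 40 bins. Beside the chromosome 8 cluster, Fto, which encodes an RNA demethylase and whose introns are known to contact Irx3, had 38 gains and 42 losses in ISCs and 39 and 32 in differentiated cells over 1125 bins, so that its shares of gains and of losses were both above those of all tested bins. Gm3272 had no called bin among 45.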

How the data were processed

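Per the labels and the methods, bisulfite-converted, PCR-amplified DNA was sequenced as paired-end reads, and the authors trimmed the reads and mapped them to mm9 with Bismark (Bowtie is also named in the submitters' processing notes). Not given in the sources used here were the Bismark version and any removal of duplicate reads, and retained duplicates would inflate the number of calls. For each library and CpG cytosine, the authors deposited the count of calls and how many of them were methylated. A deposited fraction per cytosine was left aside, and levels were computed anew from the counts.

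Both strands of each of the 21342492 reference CpGs were summed. Positions at no reference CpG (0.465% to 0.850% of a library) were left out. Calls were summed over 200-bp bins. Autosomal bins with 2 or more CpGs and 10 or more calls in all 4 libraries were compared by two-sided Fisher's exact tests on the counts, with Benjamini-Hochberg adjustment over all bins. Bins were called where the libraries differed by over 15 points with an adjusted p under 0.05. Promoters, bodies and last exons of all protein-coding genes were tested likewise, on summed calls of the transcript with the longest coding sequence.

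Named stretches were the 3 longest runs of adjacent called bins in each direction and comparison, and the called bin with the largest difference for each gene and comparison. The other lists were 11 further TALE genes (the 3 with most called bins were to be named, of which 1 is not reported here), the outer neighbours of both clusters, and marker genes of cell types. Members and lists were chosen with earlier results of these data known. Alternatives covered minimum calls and CpGs, the size of the difference, thinning, shifted bins, a window of 5 kb, strands, averaging, deep positions and other limits for CGIs and low stretches. The procedure was run on simulated counts, drawn independently at the depths of these libraries. That simulation holds no calls sharing a read, no PCR copies and no differences between pools, so it does not address these limits. Python 3.11.15, NumPy 2.4.6, SciPy 1.17.1 and Numba 0.67.0 were used, and figures were drawn with Matplotlib 3.10.9.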

Additional observations from a re-analysis of the deposited data

How the results depend on the processing

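No paired analysis was possible because each group was 1 library. The count of gains did not move by over 1.5 times with 20 or 40 calls, 4 CpGs, thinned calls, shifted bins, a 5 kb window, the minimum in the compared libraries alone or deep bins left out. With 15 points and no test, ISC gains were 60 and losses 12, differentiated losses 14, and differentiated cells were higher than ISCs in 28 bins and lower in 16 at P0 and in 11 and 22 at P21. More than 30 points left 18 ISC gains, 5 differentiated gains and 1 higher bin at P0, and 0 losses in ISCs, at P0 and at P21. The gains of Irx4 in differentiated cells were between 17 and 26 under all of these settings but that of more than 30 points, which left 4, and in ISCs between 21 and 37, with 13 left. ISC losses were 2 with shifted bins and 0 with thinned calls or a 5 kb window, and differentiated losses 1 with 4 CpGs or a 5 kb window. Lower bins at P0 were 0 with shifted bins or thinned calls and 2 with 4 CpGs, and at P21 0 with thinned calls and 2 with 4 CpGs. The difference over the 12-bin Irx4 run was 27.1 points (forward strand) and 35.5 points (reverse strand) with age in ISCs, and 25.2 points with age in differentiated cells on the reverse strand. Between populations it was -0.0464 points (forward) and 7.40 points (reverse) at P0, and -2.04 points at P21 with bins averaged. For regions with age in differentiated cells, the direction turned on the reverse strand for the promoters of Irx1 (-0.0622), Irx3 (-0.123) and Irx6 (-0.0515) and the last exon of Irx1 (-0.995), on the forward strand for the last exon of Irx6 (-4.28), and with averaged bins for the Irx6 body (0.183 points). Between populations it turned for the bodies of Irx1 at P0 (-0.111, reverse strand), Irx2 at P21 (1.33 on the reverse strand, 0.930 with averaged bins), Irx4 at P0 (1.98, averaged) and Irx6 (0.195 at P0 and 0.324 at P21, averaged). Averaging weights each bin equally by construction; for the strands, the cause was not tested. Widths of low stretches moved in 8 of 48 comparisons with limits of 10% or 20%, and 82 bins were CGI bins with 35 CpGs in 500 bp. Small losses and low levels are limited by depth, and the lack of replicates limits every comparison.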
